A study of Homo sapiens with 6 samples.

Results

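Complex I (NADH:ubiquinone oxidoreductase) is the entry enzyme of the mitochondrial respiratory chain, and the genes of its nuclear-encoded subunits are described here in HuCCT-1 cells exposed to the PRMT5 inhibitor JNJ-64619178. Members were the protein-coding genes with an NDUFA, NDUFB, NDUFC, NDUFS or NDUFV symbol followed by a number, with NDUFAB1 added and the assembly factors (NDUFAF) left out. This gave 38 genes of 60605 in the table, and all 38 passed the filter on low counts, as did 17371 genes in all. HuCCT-1 is an established human cholangiocarcinoma line, grown in DMEM-F12 with serum and antibiotics. The JNJ group held 3 libraries from cells given 6 nM of the inhibitor over 4 days, and the DMSO group held 3 libraries from cells given an equal volume of the solvent. Both groups were the same line with no other agent or alteration named, so the comparison concerns a single cell line at 1 dose and 1 time.

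In textbook terms, complex I passes electrons from NADH to ubiquinone and moves protons across the inner mitochondrial membrane. Its matrix arm is made of the N module, which oxidises NADH, and the Q module, where ubiquinone is reduced along a chain of iron-sulfur clusters. Its membrane arm holds the proton channels, whose central subunits are encoded in mitochondrial DNA, wrapped by many small accessory subunits encoded in the nucleus. PRMT5 is an arginine methyltransferase whose substrates include histones and the Sm proteins of the spliceosome.

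Total counts ran from 23931991 to 28224911 with JNJ and from 28133746 to 30691914 with DMSO, and the members held 36346 to 45561 counts per JNJ library and 40592 to 46571 per DMSO library. Levels are given as CPM, the count scaled to a common library size with TMM factors, and were tested with edgeR's quasi-likelihood test, adjusted over all 17371 genes by the Benjamini-Hochberg method with a threshold of 0.05. In that test 37.1% of all genes passed, 20.0% higher with JNJ and 17.1% lower. With upper-quartile scaling in place of TMM the split was 2800 genes higher and 4099 lower, against 3478 and 2970. The epithelial and biliary markers KRT7, KRT8, KRT18, KRT19, EPCAM, CDH1 and SOX9 lay between 58.6 and 3756 CPM in every library. Of these 7 markers 1 was higher and 4 were lower with JNJ, and their part in the results below was not tested. Leukocyte, endothelial and fibroblast markers were all under 1 CPM in every library, and of the hepatocyte genes ALB and APOA1 were under 1 CPM while SERPINA1 lay between 336 and 388 CPM.

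The complex I genes did not move as a block. With JNJ 3 members were higher, NDUFA10, NDUFV2 and NDUFV1, and 11 were lower, NDUFA11, NDUFA3, NDUFA1, NDUFB1, NDUFB6, NDUFA8, NDUFA4, NDUFS8, NDUFB9, NDUFS7 and NDUFB11, while 24 did not pass. The 14 called members were 36.8% of the 38, near the 37.1% of all genes tested. By direction they were 7.89% higher and 28.9% lower, beside 20.0% and 17.1% of all genes. The members' median log2 fold change was -0.08, with a range of -0.43 to 0.64, and the median over all genes was 0.00145. In bulk RNA fewer cells that express a gene and less RNA per cell cannot be told apart.

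The number of lower members moved with single libraries and with the scaling. Without JNJ library 1 there were 5 higher and 6 lower members, beside 3219 and 2728 of all genes. Without JNJ library 3 there were 3 and 7, beside 3016 and 2444. With upper-quartile scaling there were 3 and 17, beside 2800 and 4099. The main fit over all genes had 3478 higher and 2970 lower, so calls fell over all genes too when either JNJ library was left out. Taken 1 library at a time, the members' median log2 difference from DMSO was -0.14, -0.03 and -0.07 in the JNJ libraries. All JNJ libraries lay outside the range of the DMSO libraries for 21 members (55.3%), 6 above and 15 below, beside 47.0% of all genes tested. Of all 17371 genes 4296 lay above and 3860 below, and of the protein-coding genes 50.4% did not overlap. NDUFA4 carries a complex I symbol but is counted today as a subunit of complex IV, and without it 37 members were left with 3 higher and 10 lower.

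**Figure D1:**
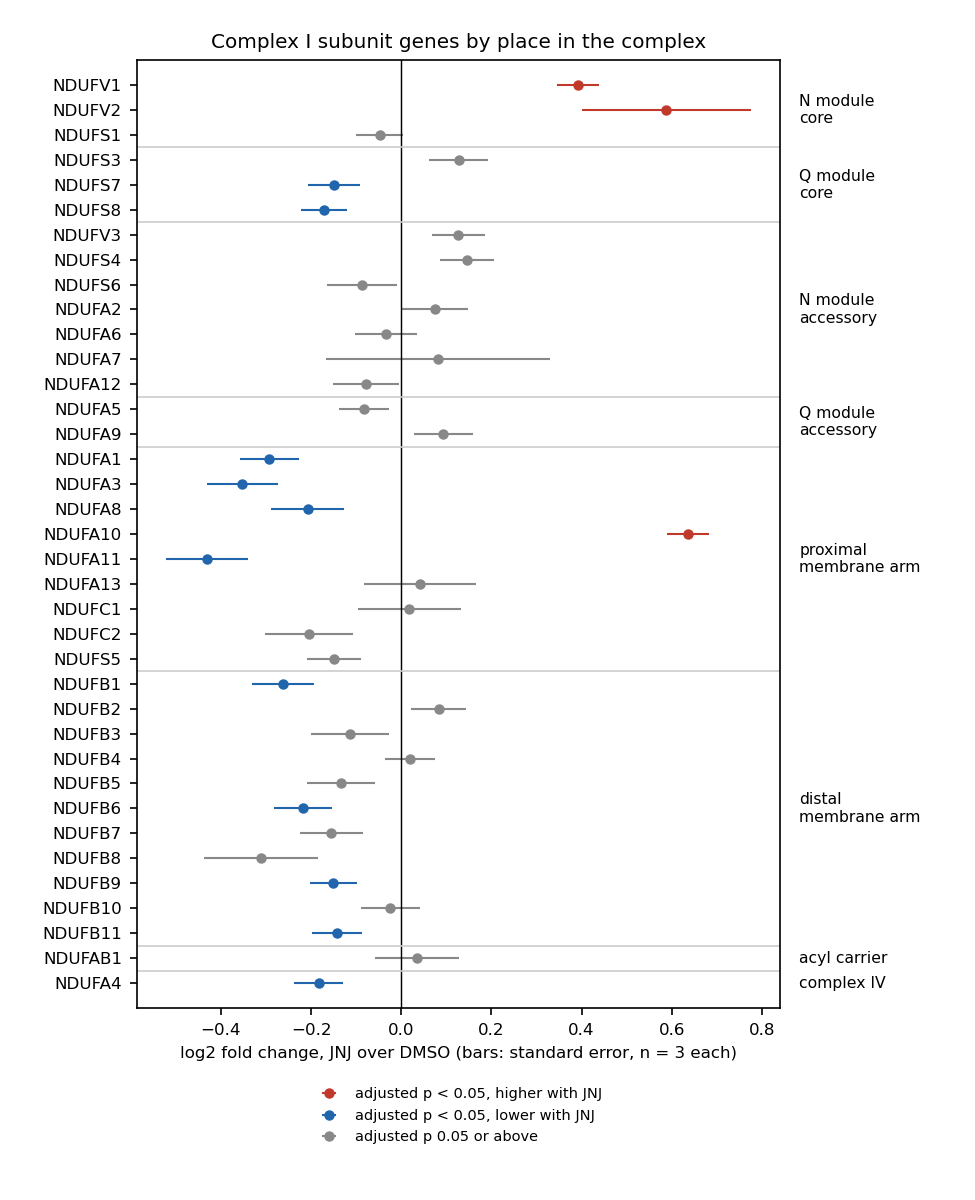
Log2 fold change of JNJ over DMSO for 37 of the 38 genes (horizontal axis), grouped down the page by place in the complex, with the standard error as bars (3 libraries per group). NDUFA10, NDUFV2 and NDUFV1 stand to the right of 0, at 0.64, 0.59 and 0.39, while the called genes of the membrane arm other than NDUFA10 stand to the left, down to -0.43 for NDUFA11.

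The promoters of NDUFA10, the member with the largest rise, of NDUFV1, the flavin subunit that rose, and of NDUFA3, a small membrane subunit that fell, are shown to set their letters side by side. Each is read from RefSeq on GRCh38.p14, 5′ to 3′ along the gene's strand, from 250 bases before to 50 after the start annotated there. That start can differ from the GENCODE start used for gene positions. Capitals mark matches to an NRF1 motif (GCGCNTGCG), an ETS core (CCGGAAG), a YY1 core (AAGATGGC) or a GC box (GGGCGG), searched on both strands. The NDUFA10 window is chr2:240025293-240025592 on the minus strand, the NDUFV1 window chr11:67606686-67606985 on the plus strand and the NDUFA3 window chr19:54102605-54102904 on the plus strand.
NDUFA10: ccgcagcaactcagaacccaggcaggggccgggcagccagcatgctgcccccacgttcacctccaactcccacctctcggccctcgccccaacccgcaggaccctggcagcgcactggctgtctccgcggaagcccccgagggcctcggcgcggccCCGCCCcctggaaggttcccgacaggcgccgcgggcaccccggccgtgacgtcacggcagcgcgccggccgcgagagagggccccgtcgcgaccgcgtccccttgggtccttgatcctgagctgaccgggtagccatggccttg
NDUFV1: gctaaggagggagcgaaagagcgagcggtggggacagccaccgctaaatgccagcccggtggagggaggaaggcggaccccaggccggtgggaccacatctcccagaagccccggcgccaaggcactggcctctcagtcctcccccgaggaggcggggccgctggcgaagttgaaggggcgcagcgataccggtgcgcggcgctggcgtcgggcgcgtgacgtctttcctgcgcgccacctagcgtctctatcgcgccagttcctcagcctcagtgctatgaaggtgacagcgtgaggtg
NDUFA3: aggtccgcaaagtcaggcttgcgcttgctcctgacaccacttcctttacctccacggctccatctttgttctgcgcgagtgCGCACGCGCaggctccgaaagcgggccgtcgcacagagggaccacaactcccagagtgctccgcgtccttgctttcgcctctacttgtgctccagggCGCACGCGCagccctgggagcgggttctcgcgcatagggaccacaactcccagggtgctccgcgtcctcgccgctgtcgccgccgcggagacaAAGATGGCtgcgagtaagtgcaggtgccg
NDUFA10 held 1 GC box, at -94 from the start, NDUFV1 held none of the 4 motifs, and NDUFA3 held NRF1 matches at -169 and -72 and a YY1 match at 21. The NDUFV1 window lies inside the GENCODE span of the gene, which begins at 67605653, so it does not cover that start. Promoters were found for 32 of the 38 genes. The window of NDUFA5 lies wholly outside its GENCODE span. NRF1 matches lay in 9 of them (28.1%), beside 8.05% of all 27305 promoters and 14.5% of those of 10553 tested protein-coding genes. YY1 matches lay in 18.8% of the members' promoters, beside 3.03% of all and 5.31% of the tested ones. ETS cores (15.6%) and GC boxes (62.5%) lay between the shares over all promoters (10.7% and 44.6%) and over tested genes (18.9% and 69.6%). None of the 4 motifs stood in the promoters of NDUFB1, NDUFB6 and NDUFS8, which were also lower. An NRF1 match stood in 0 of 3 promoters of higher members, in 4 of 9 of lower members and in 5 of 20 of those not called. YY1 matches stood in 0 of 3, 2 of 9 and 4 of 20. These are letter matches, and no binding was measured here.

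The N module holds the members at which NADH gives up its electrons. With JNJ 2 of its 3 core genes were higher, beside 20.0% of all genes. NDUFV1 (ENSG00000167792), the flavin-binding subunit that oxidises NADH, lies on chromosome 11 from 67605653 to 67612554 on GRCh38. It had 240, 264 and 250 CPM with JNJ, against 198, 189 and 188 with DMSO. Every JNJ library lay above every DMSO library, and the fold of the group means was 1.31 (log2 0.39, SE 0.05, edgeR adjusted p = 3.12e-07). NDUFV2 (ENSG00000178127), which carries the iron-sulfur cluster next to the flavin, had 2.97, 3.29 and 3.01 CPM with JNJ, against 2.35, 2.14 and 1.70 with DMSO. The libraries did not overlap (log2 0.59, SE 0.19, edgeR adjusted p = 0.016), but the level was low, 82.9% of the transcript lies in exons of another gene, and the call was lost without DMSO library 3 (adjusted p = 0.0873) or JNJ library 2 (0.0567). NDUFS1, the large iron-sulfur subunit of the matrix arm, did not pass at -0.05 log2.

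None of the 7 accessory genes of the N module passed the edgeR threshold, beside 37.1% of all genes. Of the 7, 2 had an unadjusted p under 0.05, beside 7847 of all 17371 genes. NDUFS4, a subunit whose loss causes Leigh syndrome, had 35.8, 38.8 and 37.1 CPM with JNJ, against 31.8, 33.4 and 35.8 with DMSO (log2 0.15, edgeR adjusted p = 0.0626). NDUFV3, a small accessory subunit beside the flavin, had 34.0, 37.1 and 35.6 CPM with JNJ, against 33.4, 31.6 and 32.7 with DMSO (log2 0.13, edgeR adjusted p = 0.0969). In both genes the JNJ libraries lay above the DMSO libraries, by a margin of under 1 CPM between the nearest pair. NDUFS4 passed without DMSO library 3 (adjusted p = 0.0395) or JNJ library 1 (0.0393). The zinc-binding subunit NDUFS6 stood at -0.09 log2, the thioredoxin-like NDUFA2 at 0.08, the LYR-motif subunit NDUFA6 at -0.03, NDUFA7 at 0.08 and NDUFA12 at -0.08. NDUFA7 had the lowest per-length level of the 38 genes with JNJ, and its counts were 1.42, 1.33 and 1.53 CPM with JNJ, against 1.57, 1.34 and 1.12 with DMSO, so that the groups overlapped.

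The Q module held 2 lower genes among its 4 core members, beside 17.1% lower among all genes. NDUFS8, which binds iron-sulfur clusters on the path to ubiquinone, had 66.2, 72.0 and 74.4 CPM with JNJ, against 78.2, 80.6 and 80.8 with DMSO. The groups did not overlap (log2 -0.17, SE 0.05, edgeR adjusted p = 0.00985), and without JNJ library 1 the adjusted p was 0.0587. NDUFS7, which holds the last cluster before ubiquinone, had 36.9, 40.6 and 38.7 CPM with JNJ, against 44.9, 41.8 and 42.2 with DMSO. Its libraries also did not overlap (log2 -0.15, SE 0.06, edgeR adjusted p = 0.0424), but the call was lost in 8 of 15 alternatives, among them leaving out DMSO library 1 (0.163), DMSO library 2 (0.0561), JNJ library 1 (0.152) or JNJ library 3 (0.106). NDUFS3, another core subunit of the matrix arm, stood at 0.13 log2 and did not pass, though it did without JNJ library 1 (adjusted p = 0.0104). The accessory genes NDUFA5 (-0.08) and NDUFA9, a relative of short-chain dehydrogenases (0.09), did not pass.

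NDUFA10 (ENSG00000130414) had the largest difference of any member. It encodes a subunit on the matrix face of the membrane arm with a fold like that of nucleoside kinases, and lies on chromosome 2 from 239892450 to 240025402. It had 183, 183 and 184 CPM with JNJ, against 122, 121 and 111 with DMSO. The JNJ libraries lay close together and above all DMSO libraries, and the mean was 183 ± 0.796 with JNJ and 118 ± 6.06 with DMSO (SD, n = 3 each), a 1.55-fold difference (log2 0.64, SE 0.05, edgeR adjusted p = 1.03e-10). The call held in all 15 alternatives, with log2 fold changes of 0.58 to 0.65.

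The other called genes of the proximal membrane arm, the part next to the matrix arm, were all lower. They were 4 of the 9 genes there (44.4%, beside 17.1% of all genes). NDUFA11 (ENSG00000174886), a membrane subunit that contacts complex III in supercomplexes, had 10.1, 12.6 and 10.5 CPM with JNJ, against 14.8, 15.1 and 15.1 with DMSO. The groups did not overlap, and the gene, with 67.0% of its transcript in exons of another gene, had the largest fall of the members (log2 -0.43, SE 0.09, edgeR adjusted p = 0.00055). NDUFA3, a small membrane subunit, had 17.0, 20.4 and 17.7 CPM with JNJ, against 21.8, 23.9 and 24.9 with DMSO, again with no overlap (log2 -0.35, SE 0.08, edgeR adjusted p = 0.000953). NDUFA1, a single-helix membrane subunit encoded on the X chromosome, had 26.5, 27.4 and 24.7 CPM with JNJ, against 30.5, 32.1 and 33.9 with DMSO. Its groups lay apart (log2 -0.29, SE 0.06, edgeR adjusted p = 0.000892), and these 3 calls held in all 15 alternatives.

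NDUFA8, a cysteine-rich subunit of the intermembrane space, had 15.05, 17.6 and 16.2 CPM with JNJ, against 18.3, 17.9 and 20.3 with DMSO. The nearest libraries were 17.6 and 17.9, and the call (log2 -0.21, SE 0.08, edgeR adjusted p = 0.0451) was lost in 8 of 15 alternatives, among them without DMSO library 1 (0.0561) or 3 (0.176) and without JNJ library 1 (0.18) or 3 (0.105). NDUFC2 had 9.72, 8.75 and 10.7 CPM with JNJ, against 11.4, 11.4 and 10.8 with DMSO (log2 -0.21, edgeR adjusted p = 0.105), and NDUFS5, another cysteine-rich subunit, had 34.7, 34.1 and 35.0 CPM with JNJ, against 36.3, 37.5 and 41.2 with DMSO (log2 -0.15, edgeR adjusted p = 0.0521). Neither passed, although the JNJ libraries lay below the DMSO libraries in both. NDUFS5 passed in 5 of 15 alternatives, among them without DMSO library 1 (adjusted p = 0.0292). NDUFA13, a subunit near the join of both arms, stood at 0.04 log2 and NDUFC1 at 0.02.

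In the distal membrane arm 4 of 11 genes were lower and none was higher (36.4% and 0.0%, beside 17.1% and 20.0% of all genes). NDUFB1 had 28.0, 32.4 and 27.3 CPM with JNJ, against 34.7, 33.3 and 37.3 with DMSO, with no overlap (log2 -0.26, SE 0.07, edgeR adjusted p = 0.00368). NDUFB6 had 22.4, 23.1 and 22.3 CPM with JNJ, against 27.1, 26.0 and 25.6 with DMSO, again apart (log2 -0.22, SE 0.06, edgeR adjusted p = 0.00995). Both are small accessory subunits of the membrane arm, and both calls held in all 15 alternatives.

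NDUFB9, a LYR-motif subunit that binds the acyl carrier protein, had 84.0, 96.8 and 90.8 CPM with JNJ, against 103, 103 and 96.5 with DMSO. JNJ library 2 lay just above DMSO library 3, so the groups overlapped (log2 -0.15, SE 0.05, edgeR adjusted p = 0.0261), and the call was lost without DMSO library 1 (0.0883) or 2 (0.0961) and without JNJ library 1 (0.145) or 3 (0.07). NDUFB11, an X-linked subunit, had 38.2, 40.4 and 40.7 CPM with JNJ, against 43.6, 42.5 and 45.5 with DMSO. Its groups did not overlap (log2 -0.14, SE 0.06, edgeR adjusted p = 0.0455), but the call was lost in 9 of 15 alternatives, among them without DMSO library 1 (0.0761), 2 (0.0518) or 3 (0.126) and without JNJ library 1 (0.145) or 3 (0.071).

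Among the distal genes that did not pass, NDUFB8 had 5.12, 5.74 and 5.55 CPM with JNJ, against 6.87, 5.98 and 7.52 with DMSO (log2 -0.31, edgeR adjusted p = 0.0566). NDUFB7, a cysteine-rich subunit, had 24.1, 29.4 and 26.4 CPM with JNJ, against 28.5, 29.8 and 30.7 with DMSO (log2 -0.15, edgeR adjusted p = 0.0868). The libraries of NDUFB8 did not overlap and those of NDUFB7 did, and each passed in 3 of 15 alternatives. NDUFB8 passed without DMSO library 2 (adjusted p = 0.0284) and NDUFB7 without JNJ library 2 (0.0107). The other accessory genes there stood at 0.08 (NDUFB2), -0.11 (NDUFB3), 0.02 (NDUFB4), -0.13 (NDUFB5) and -0.02 (NDUFB10) on the log2 scale, and NDUFAB1, the acyl carrier protein present in both arms, at 0.04.

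NDUFA4 had 40.2, 42.6 and 42.7 CPM with JNJ, against 48.6, 48.4 and 45.5 with DMSO, with no overlap (log2 -0.18, SE 0.05, edgeR adjusted p = 0.01), and the call held in all 15 alternatives. Its paralogue NDUFA4L2 lay near 1 CPM, with 1.02, 0.98 and 1.02 with JNJ and 1.14, 1.27 and 0.578 with DMSO (log2 0.02, edgeR adjusted p = 0.965). Both arms taken by counts, the 20 genes of the membrane arm held 1 higher and 8 lower with a median of -0.15, and the 16 genes of the matrix arm held 2 higher and 2 lower with a median of 0.02. These were 5.0% and 40.0% of the membrane arm and 12.5% each of the matrix arm, beside 20.0% and 17.1% of all genes. That contrast between the arms was not tested.

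**Figure D2:**
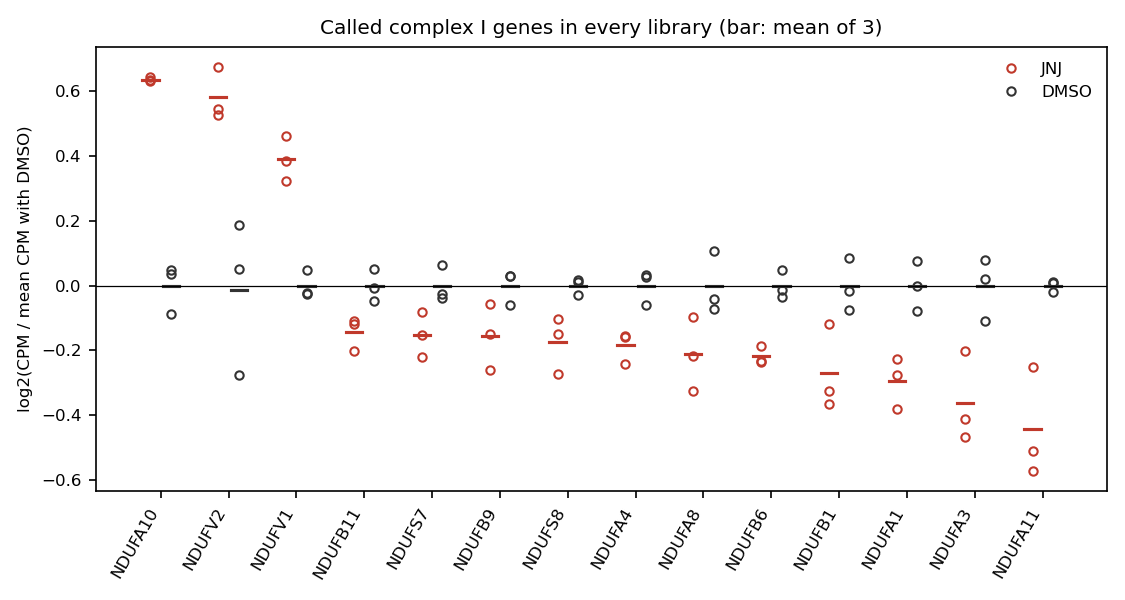
CPM in every library of the 14 called genes, as log2 of the ratio to the gene's mean with DMSO (vertical axis), with JNJ at the left and DMSO at the right of each gene and bars at the mean of 3 libraries. The JNJ points of NDUFA10 lie almost on each other near 0.64, and those of NDUFB9 are the only ones that reach into the range of the DMSO points.

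Summed over all members, the libraries held 1489, 1595 and 1540 CPM with JNJ, against 1484, 1470 and 1496 with DMSO. The sum averaged 1541 ± 52.6 with JNJ and 1483 ± 12.7 with DMSO (SD, n = 3 each), and the libraries overlapped. NDUFA10 and NDUFV1 made up 28.2% of it with JNJ and 20.9% with DMSO. Without these 2 genes, both higher with JNJ and left out after their values were seen, no JNJ library reached the DMSO range. The sums were then 1067, 1147 and 1106 CPM with JNJ, against 1164, 1161 and 1197 with DMSO. Leaving out higher genes lowers the JNJ sum against DMSO by construction.

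Levels can be compared between genes only per length, and were computed as TPM (length-scaled counts that sum to the same total in every library, over the genes tested) from the length of 1 main transcript per gene. NDUFV1 stood first with JNJ, at 319 ± 15.9 TPM, and NDUFB9 second, at 258 ± 16.8 (SD, n = 3 each). With DMSO the order was turned, NDUFB9 at 277 ± 2.48 TPM and NDUFV1 at 235 ± 7.78, and in both groups the difference was larger than these SDs. NDUFS8 came next in both, at 181 ± 5.93 TPM with JNJ and 197 ± 7.98 with DMSO. NDUFA10 stood 13th with JNJ, at 75.5 ± 2.11 TPM, and 20th with DMSO, at 46.9 ± 1.19. At the low end were NDUFV2, with 6.72 ± 0.439 TPM with JNJ and 4.32 ± 0.592 with DMSO, and NDUFA7, with 4.80 ± 0.260 with JNJ and 4.37 ± 0.651 with DMSO, and with DMSO these neighbours did not differ beyond their SDs. This order holds for the main transcripts: with the merged exons of each gene NDUFS5 stood first, at 181.5 TPM with JNJ and 190.9 with DMSO, and NDUFV1 lay above NDUFB9 in both groups. Levels from the merged exons of each gene ranked with a Spearman correlation of 0.758 to these over the 38 genes with DMSO, both from the same counts.

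The members' per-length levels spanned a wide range, and the genes at its low end had exons shared with another annotated gene. Some of these shared little and had long main transcripts, by whose length the level is divided. NDUFS1, NDUFA9 and NDUFC2 had 11819, 8363 and 2518 bases, beside a median of 887 over the members. Of the main transcript of NDUFV2 82.9% of the bases lay in exons of a second gene on the same strand. The share was 75.9% for NDUFA7, 71.7% for NDUFB8, 67.0% for NDUFA11, 44.1% for NDUFA13, 17.1% for NDUFC2 (with the read-through gene NDUFC2-KCTD14), 11.8% for NDUFA9 and 3.31% for NDUFS1, and 0 for the other members. No source used here says how reads falling in 2 genes were counted, so the levels of these genes are uncertain, and the part of the overlap in their levels was not tested. Most partner rows were empty or held a few counts. The partner of NDUFA13, ENSG00000258674, held 86, 83 and 80 counts with JNJ, against 123, 83 and 121 with DMSO, 48.4% of the counts of NDUFA13 over all libraries (log2 -0.18, edgeR adjusted p = 0.438).

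**Figure D3:**
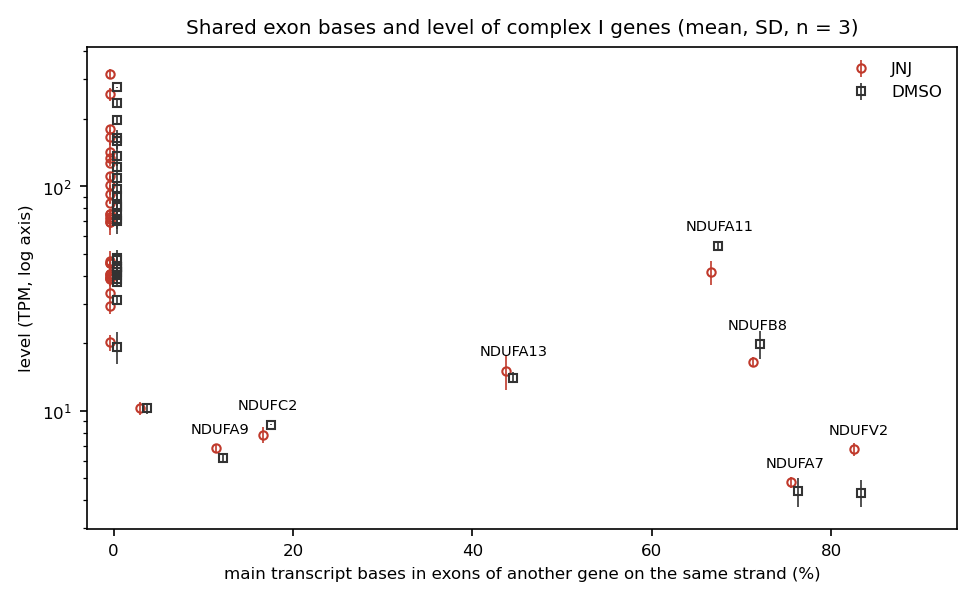
Level of 37 of the 38 genes in TPM (vertical log axis, mean and SD of 3 libraries, JNJ as circles and DMSO as squares) against the percent of its main transcript that lies in exons of another gene on the same strand (horizontal axis). NDUFV2, at 82.9%, and NDUFA7, at 75.9%, have the lowest levels, while NDUFA11, at 67.0%, had 41.6 TPM with JNJ and 54.3 with DMSO.

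The 33 members with under 20% of shared bases held 2 higher and 10 lower genes with a median of -0.08. These were 6.06% and 30.3%, beside 20.0% and 17.1% of all genes. The 5 members with 20% or more held 1 of each. On the opposite strand, exons of other genes covered 44.5% of the NDUFA1 transcript (RNF113A), 37.9% of NDUFS7, 26.0% of NDUFB9 (TATDN1), 17.9% of NDUFB11 (RBM10) and 16.3% of NDUFA3 (TFPT), all called lower. Of the other genes called lower, such exons covered 1.02% of NDUFB6 and 0.0% of NDUFS8, NDUFA8, NDUFA11, NDUFB1 and NDUFA4. Among genes not called they covered 29.6% of NDUFB2 (NDUFB2-AS1), 24.1% of NDUFA2 (IK and TMCO6), 14.8% of NDUFA7 (RPS28) and 12.1% of NDUFS1. Nor is it known whether counting used strand, so reads of these partners may be among the counts. Rows named as copies of these genes (pseudogenes) numbered 57, all under 1 CPM in every library, the highest at 0.805 CPM. Their sums were 1.67, 1.61 and 2.12 CPM with JNJ, against 1.41, 1.38 and 1.09 with DMSO.

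The members have short transcripts with few exons, a property the choice of genes did not use. Their main transcripts had a median of 4 exons and 887 bases, beside 9 exons and 3000 bases over the 13063 protein-coding genes tested. The 3 higher genes had many exons for this set, 10 in NDUFA10, 10 in NDUFV1 and 8 in NDUFV2. Among the 22 members with 3 or 4 exons none was higher and 9 were lower, with a median log2 fold change of -0.15, while the 7 members with 8 or more exons held 3 higher and 1 lower, NDUFS7, with a median of 0.09. NDUFS1 with 19 exons and NDUFA9 with 11 did not pass. The 9 members with 5 to 7 exons held 1 lower, NDUFS8, with a median of 0.02.

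Exon classes also differed in the protein-coding genes as a whole. Of those with 3 or 4 exons 13.8% were higher and 19.6% lower with JNJ (median -0.04), and of those with 8 or more 30.6% were higher and 14.6% lower (median 0.06). In the 5 to 7 exon class the shares were 17.0% and 18.7%. The Spearman correlation of exon number with log2 fold change was 0.414 over the 38 members and 0.218 over the 13063 protein-coding genes, and that of transcript length 0.196 and 0.0722. These are descriptions across genes of the same 6 libraries, the exon classes were set after the values were seen, and the part of exon number in the members' differences was not tested.

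**Figure D4:**
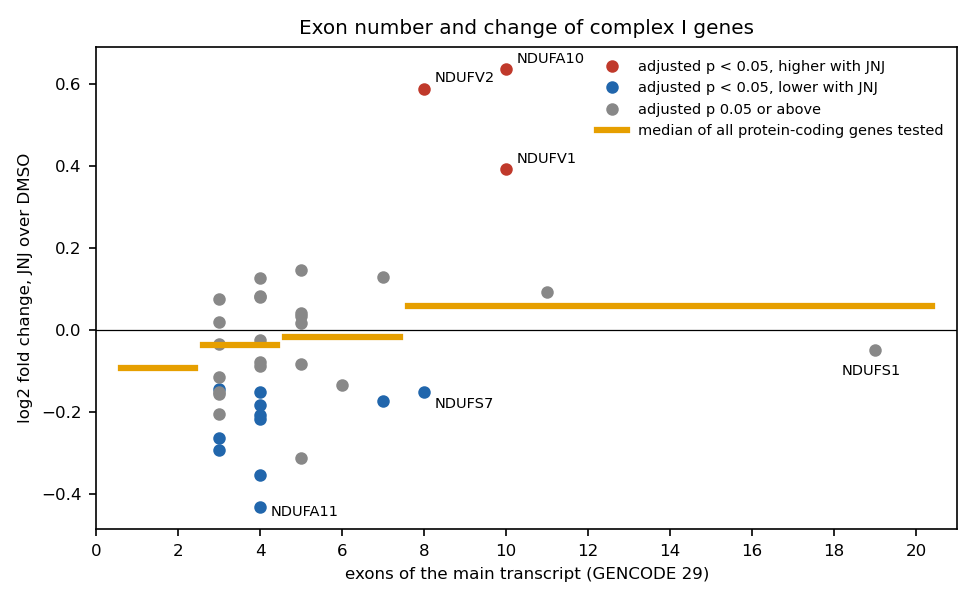
Log2 fold change of JNJ over DMSO (vertical axis) against the number of exons of the main transcript (horizontal axis) for 37 of the 38 genes, with horizontal bars at the median of all protein-coding genes tested with 1 to 2, 3 to 4, 5 to 7 and 8 or more exons. The 3 higher genes have 8 or 10 exons, and the bars run from -0.09 in the lowest exon class to 0.06 in the highest.

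Assembly factors help to build complex I without staying in it, and several of the changes measured among them were larger than those of the subunit genes. Of 23 assembly factors 5 were higher and 7 lower with JNJ (21.7% and 30.4%, beside 20.0% and 17.1% of all genes), with a median log2 fold change of -0.11. ACAD9, an acyl-CoA dehydrogenase family member needed for the membrane arm's assembly, had 33.9, 32.4 and 30.0 CPM with JNJ, against 50.1, 52.0 and 51.9 with DMSO (log2 -0.68, edgeR adjusted p = 1.29e-09). TIMMDC1, a membrane-bound assembly factor, had 89.3, 90.0 and 91.5 CPM with JNJ, against 61.6, 63.9 and 65.0 with DMSO (log2 0.51, edgeR adjusted p = 7.07e-09). These 2 genes, both known for roles in building the membrane arm, stood on opposite sides of DMSO with no overlap.

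DMAC1, an assembly factor of the distal membrane arm, had 13.5, 13.9 and 13.0 CPM with JNJ, against 23.7, 22.8 and 22.5 with DMSO (log2 -0.77, edgeR adjusted p = 9.64e-09). NDUFAF3, which acts on the Q module, had 6.75, 8.08 and 8.05 CPM with JNJ, against 13.0, 13.6 and 15.1 with DMSO (log2 -0.86, edgeR adjusted p = 2.52e-07). DMAC2 had 31.4, 31.9 and 33.9 CPM with JNJ, against 25.1, 25.1 and 26.6 with DMSO (log2 0.34, edgeR adjusted p = 0.000121). The groups lay apart in all of these, and the 5 calls held in all 15 alternatives. The largest falls among the factors exceeded the -0.43 of NDUFA11, the largest among the subunits.

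**Figure D5:**
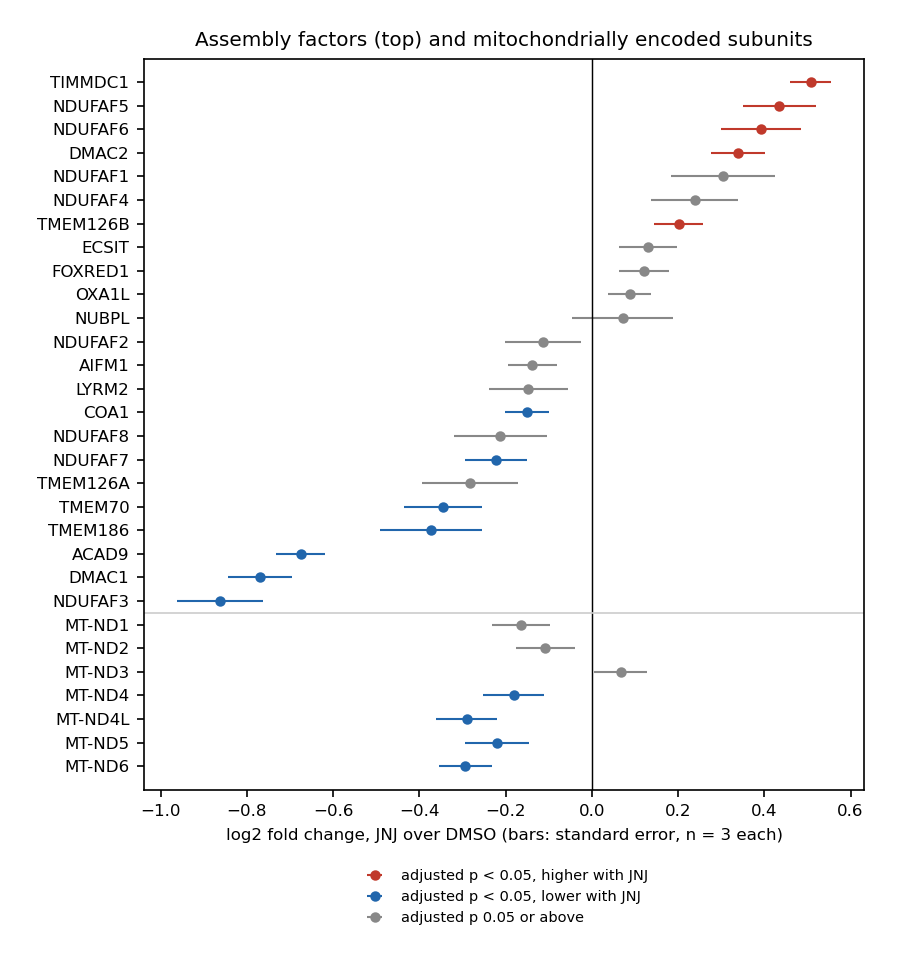
Log2 fold change of JNJ over DMSO (horizontal axis, bars for the standard error, 3 libraries per group) of the 23 assembly factors (above the line, ordered by fold change) and the 7 subunits encoded in mitochondrial DNA (below). The factors run from 0.51 for TIMMDC1 to -0.86 for NDUFAF3, and 4 of the mitochondrially encoded subunits are called lower.

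The 7 subunits encoded in mitochondrial DNA form the proton channels and the membrane core, and 4 were lower with JNJ and 0 higher (57.1% and 0.0%, beside 17.1% and 20.0% of all genes), with a median log2 fold change of -0.18. Without JNJ library 1 there was 1 higher, MT-ND3 (adjusted p = 0.0454). MT-ND6 had 120, 116 and 139 CPM with JNJ, against 141, 166 and 152 with DMSO, with no overlap (log2 -0.29, edgeR adjusted p = 0.000488). MT-ND4L had 1840, 1524 and 2021 CPM with JNJ, against 2181, 2351 and 2052 with DMSO, also apart (log2 -0.29, edgeR adjusted p = 0.00207), and was not called by DESeq2 (0.0673). MT-ND5 (log2 -0.22, edgeR adjusted p = 0.0206) and MT-ND4 (-0.18, 0.0464) had overlapping libraries. The call of MT-ND5 was lost without DMSO library 1, DMSO library 2 or JNJ library 2, that of MT-ND4 without any of these or JNJ library 1 (adjusted p up to 0.19 and 0.236). Both were also lost under DESeq2, and MT-ND4 under the replicate block and with only genes over 1 CPM in 3 libraries. Across the 15 alternatives 1 to 6 of the 7 genes were lower. The share of all counts on mitochondrial genes was 16.76%, 16.95% and 18.92% with JNJ, against 20.33%, 20.61% and 17.84% with DMSO, so JNJ library 3 and DMSO library 3 crossed, and its part in these differences was not tested.

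Of the 13 tested genes for making iron-sulfur clusters, the cofactors of the matrix arm, 2 were higher and 2 lower (15.4% each, beside 20.0% and 17.1% of all genes). ISCU, the scaffold on which clusters are built, had 83.4, 81.8 and 77.4 CPM with JNJ, against 69.6, 68.4 and 66.9 with DMSO (log2 0.24, edgeR adjusted p = 0.000319). HSPA9, the chaperone of cluster transfer, had 380, 388 and 382 CPM with JNJ, against 436, 443 and 438 with DMSO (log2 -0.20, edgeR adjusted p = 0.000625). Scaffold and chaperone lay on opposite sides, each with no overlap. BOLA3 was lower (log2 -0.44, edgeR adjusted p = 0.00954, 0.0507 without DMSO library 2) and the sulfur donor NFS1 higher (0.24, 0.0216), the NFS1 call being lost in 6 of 15 alternatives, among them without any 1 of the DMSO libraries or JNJ library 2 (adjusted p up to 0.156).

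Of 10 regulators of nuclear-encoded respiratory genes 1 was higher and 2 lower (10.0% and 20.0%, beside 20.0% and 17.1% of all genes). PPARGC1B, a coactivator, had 26.2, 21.1 and 25.8 CPM with JNJ, against 17.0, 16.0 and 17.3 with DMSO (log2 0.53, edgeR adjusted p = 1.26e-05). GABPB2, a partner of the ETS factor GABPA, had 11.0, 12.4 and 11.5 CPM with JNJ, against 16.7, 19.9 and 17.8 with DMSO (log2 -0.63, edgeR adjusted p = 2.6e-06). TFAM, which packages mitochondrial DNA and takes part in starting its transcription, stood at -0.25 log2 (edgeR adjusted p = 0.000306). NRF1 (0.02 log2), YY1 (-0.08) and GABPA (0.12) did not pass, though YY1 did with upper-quartile scaling (adjusted p = 0.0163).

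In the other complexes of the chain, counted on the same scale, complex II had 0 of 4 genes called in either direction by edgeR. It also had 0 at an unadjusted p under 0.05, beside 7847 of all 17371 genes. Complex III had 3 higher and 1 lower of 9 with a median of 0.10, complex IV 0 higher and 3 lower of 10 with -0.04, and complex V 0 higher and 6 lower of 17 with -0.07. The called genes were 44.4% in complex III, 30.0% in complex IV and 35.3% in complex V, beside 37.1% of all genes. UQCRC1 of complex III (log2 -0.24, edgeR adjusted p = 0.000406), COX5A of complex IV (-0.27, 0.000751) and ATP5PD of complex V (-0.31, 5.32e-05) had the smallest p within their complexes. Each had its JNJ libraries below its DMSO libraries, as most lower complex I genes did. In complex III UQCRQ (0.24), UQCR10 (0.22) and UQCRH (0.13) were higher on the log2 scale, but UQCRQ was not called without DMSO library 2 (edgeR adjusted p = 0.0629), UQCR10 was lost in 6 of 15 alternatives and UQCRH in 11. COX6B1 (-0.22) and COX6C (-0.16) were lower in complex IV, COX6C being lost in 10 of 15. In complex V ATP5F1B (-0.24), ATP5MC1 (-0.29), ATP5MC3 (-0.21) and ATP5F1D (-0.21) were lower, each in all 15 alternatives. Differences between the complexes were not tested.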

How the data were processed

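Polyadenylated RNA of 6 HuCCT-1 libraries (3 JNJ, 3 DMSO) was sequenced after Maxwell extraction and stranded Illumina library preparation, per the labels' protocols. The authors deposited 1 table of raw counts per gene, with no normalization. Tools named in the submitters' processing notes are STAR 2.7.9a and featureCounts 1.6.0, FastQC 0.11.8, limma and edgeR. These notes give the mouse build GRCm39, although every row carries a human Ensembl identifier, so the build is uncertain. The annotation, the use of strand and the treatment of reads with several matches, not given in the sources used here, leave overlapping and antisense genes uncertain.

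Of 60649 rows 44 repeated identifiers with counts of 0 were dropped. The 38 members were taken by symbol from a gene name table. Positions, exons and lengths came from GENCODE 29 on GRCh38, with 1 main transcript per gene, that paired with the lowest-numbered RefSeq transcript. Genes were kept with filterByExpr (minimum count 10, minimum total 15), scaled by TMM and tested with edgeR 4.0.16 (glmQLFit, glmQLFTest, group alone) at a Benjamini-Hochberg adjusted p of 0.05. The standard error was the size of the log2 fold change over the square root of F. The common biological coefficient of variation was 4.89%. Between replicates the chi-square over its degrees of freedom was 2.68 to 8.93, above sampling noise, but nothing in the labels says that they came from separate cultures, so p-values measure only the spread between these samples. Deviations of same-numbered libraries from their group means had correlations of -0.02, -0.01 and 0.00193 over genes. With 3 libraries per group these cannot exclude a pairing, and the main test used none.

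Alternatives were RLE, upper-quartile and library-total scaling, DESeq2 1.42.0, limma-voom (limma 3.58.1), no filter, only genes over 1 CPM in 3 or more libraries, the replicate block, protein-coding genes only, and leaving out each library in turn, 15 in all. R 4.3.3 and Python 3.11.15 were used, and the fits were tested on simulated counts. All members but 1 are named, called members with every library's value, as are members not called with a log2 fold change beyond 0.2 or an unadjusted p under 0.05, the ends of the per-length order, and of each other gene list up to 5 called genes with the smallest p. The members, lists and this rule were chosen with earlier results of these data known. Values of 1 member are not reported here, and it was kept in all counts and medians.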

Additional observations from a re-analysis of the deposited data

How the results depend on the processing

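NDUFA10, NDUFV1, NDUFA1, NDUFA3, NDUFA4, NDUFA11, NDUFB1 and NDUFB6, 8 of the 14 called genes, passed in all 15 alternatives, and 8 of the genes not called passed in at least 1. With upper-quartile scaling 17 members were lower and their median log2 fold change was -0.139, and over all genes 2800 were higher and 4099 lower. Leaving out 1 library gave 2 to 5 higher members, 6 to 12 lower members and a median of -0.0923 to -0.0553. Over all genes it gave 2879 to 3345 higher and 2425 to 2752 lower, against 3478 and 2970 with all 6 libraries. With the replicate block 3 members were higher and 8 lower, beside 3311 and 2821 of all genes. In that fit NDUFS7 (0.0646), NDUFA8 (0.052) and NDUFB11 (0.0675) did not pass. The median per-length level with JNJ was 46.0 TPM, 35.6 TPM with merged exon lengths and 22.8 as RPKM, which are other lengths or units by construction.

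Some log2 fold changes of genes not called turned sign, and the cause was not tested. With upper-quartile scaling NDUFA13 stood at -0.0184, NDUFC1 at -0.0403, NDUFB4 at -0.0402 and NDUFAB1 at -0.0228. Called genes stood lower too under this scaling, NDUFA10 at 0.577 against 0.636, NDUFV1 at 0.333 against 0.392 and NDUFA1 at -0.351 against -0.293. With protein-coding genes only NDUFC1 stood at -0.0042 and NDUFB4 at -0.00415. With 1 library left out NDUFA6 ranged from -0.0707 to 0.0286, NDUFA7 from -0.0482 to 0.205, NDUFA13 from -0.0636 to 0.177, NDUFC1 from -0.0475 to 0.122, NDUFB4 from -0.0295 to 0.0576 and NDUFAB1 from -0.059 to 0.118. Depth limits NDUFV2 and NDUFA7 most, at 1.12 to 3.29 CPM.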
